A study of Mus musculus with 8 samples.

Results

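The ADAM, ADAMTS and ADAMTS-like genes were taken from a table of left ventricular gene expression by their names alone: every row named Adam, Adamts or Adamtsl followed by a number and at most 1 letter was a member. This gave 57 genes of the 55679 in the table, namely 33 ADAM, 19 ADAMTS and 5 ADAMTS-like genes. All animals were male wild-type C57BL/6J mice, and every library came from left ventricle of hearts flushed with saline. The control group (4 libraries) received saline and the ANG II group (4 libraries) received angiotensin II (a vasoconstrictor hormone) at a dose of 1500 ng/kg/min, in both cases for 7 days from a mini-pump under the skin. The ages of the mice were not given in the sources used here. The comparison asks which of these genes differ in level between ANG II and control ventricles. The study's methods call its sequencing samples biological replicates, whereas the labels of these libraries do not name the animals, so the p-values measure the spread between these libraries.

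ADAM proteins sit in the cell membrane and carry a metalloprotease and a disintegrin domain. The active ones cut the outer parts off other membrane proteins, releasing growth factors and cytokines or starting Notch signaling, whereas a number of them have lost the catalytic site and act in adhesion. ADAMTS proteins are secreted relatives with thrombospondin repeats that cut matrix proteins such as proteoglycans, procollagens and von Willebrand factor. ADAMTS-like proteins have the thrombospondin repeats but no protease domain, and several bind fibrillin microfibrils.

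This difference can be read from the coding sequence. In GENCODE M21, the zinc-binding motif of the metzincin proteases, in which 3 histidines hold the zinc and a glutamate acts in catalysis, was encoded by 20 of the 33 ADAM genes, by 19 of the 19 ADAMTS genes and by 0 of the 5 ADAMTS-like genes. The ADAM genes without it were Adam2, Adam3, Adam4, Adam5, Adam6a, Adam6b, Adam7, Adam11, Adam18, Adam22, Adam23, Adam29 and Adam32. The runs of 33 coding bases below show the motif in proteases that the results turn on, from the first to the last histidine, with the codons of the histidines and the glutamate in capitals.
Adam8: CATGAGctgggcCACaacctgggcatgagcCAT
Adam12: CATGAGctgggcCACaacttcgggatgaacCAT
Adam10: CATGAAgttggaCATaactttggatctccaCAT
Adam17: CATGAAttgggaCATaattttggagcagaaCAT
Adamts2: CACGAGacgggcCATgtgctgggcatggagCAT
Adamts12: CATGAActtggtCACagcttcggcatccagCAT
Adamts4: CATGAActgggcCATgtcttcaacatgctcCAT
Adamts8: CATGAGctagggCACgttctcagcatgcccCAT
Adamts16: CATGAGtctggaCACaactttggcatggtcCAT

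Of the 33 bases, 12 were the same in all 9 runs. Adam8 and Adam12 shared 29 bases, and Adam10 and Adam17 shared 26. The eighth codon of the run also separated the proteases: 13 of the 19 ADAMTS genes and all 20 ADAM genes with the motif encode glycine there, Adamts1, Adamts4, Adamts9, Adamts15 and Adamts20 encode asparagine, and Adamts8 encodes serine. In GRCm38, the Adam8 run lies in exon 11 of 24 on the minus strand at chr7:139987893-139987925, and the Adam12 run in exon 11 of 23 on the same strand at chr7:133961158-133961190. The runs of Adam10 and the 5 ADAMTS genes each span 2 exons.

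Levels were read as FPKM, the fragments of a gene scaled by transcript length and library depth. The libraries held 14455654 to 16564828 fragments, and 12397 to 13298 genes reached 1 FPKM. The submitters' extraction text names another cell type, whereas all other labels give left ventricle. Cardiomyocyte markers, summed over 10 genes, were at 39850 to 53570 FPKM in all libraries, so the tissue label holds for heart muscle. The atrial markers Sln, Myl7 and Myl4 summed to 1.16 to 48.8 FPKM in control and 52.5 to 230.5 FPKM in ANG II. A gene was tested with limma on log2(FPKM + 1) when its mean was at least 0.1 FPKM, and was called when its Benjamini-Hochberg adjusted p was under 0.05 and its log2 fold change above 0.5 in size. All fold changes given as log2 are differences on the log2(FPKM + 1) scale, which understates the change of genes with low values.

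A total of 37 members were tested, 15 ADAM, 17 ADAMTS and 5 ADAMTS-like genes, and 15 of these were called. All 15 were higher in ANG II. For 1 of them, Adamts16, the filter on low values left no other direction possible, so 14 calls bear on the direction. With the all-gene median of 0.15 subtracted, the called members lay between 0.39 and 2.06 on the log2 scale. Among all 19364 genes tested, 15.4% were called, 14.0% as higher and 1.41% as lower. By subfamily, 5 of the 15 tested ADAM genes, 7 of the 17 ADAMTS genes and 3 of the 5 ADAMTS-like genes were called. The median log2 fold change was 0.28 over the tested ADAM genes, 0.39 over the ADAMTS genes and 0.53 over the ADAMTS-like genes, beside 0.15 over all genes tested. At an adjusted p under 0.05 without the fold change limit, 22 members passed, against 33.3% of all genes. The groups did not overlap for 22 members, all with ANG II higher, against 33.7% of all genes in either direction. For a single gene, 4 against 4 libraries cannot give a smaller p than 0.0286 in an exact two-sided permutation test. With the median-of-ratios scaling, which put the median of all genes at 0.0040, 12 members were called, 11 of them higher, and with quantile normalization, which put it at -0.04, 13 were called, also 11 of them higher. The lower calls were Adam19 in both and Adam11 in the latter. With a pseudocount of 0.1, 17 members were called, and with voom on the recovered fragments 20, all higher. Calls over all genes moved as well. They numbered 2981 in the main comparison, 2474 with median-of-ratios scaling and 2399 with quantile normalization. With the pseudocount of 0.1 they numbered 3816, and with voom 3987. The share of higher genes among all calls was 90.8% in the main comparison, 67.5% with median-of-ratios scaling, 58.9% with quantile normalization and 78.7% when the mitochondrial transcripts and the 10 most abundant genes were removed.

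**Figure D1:**
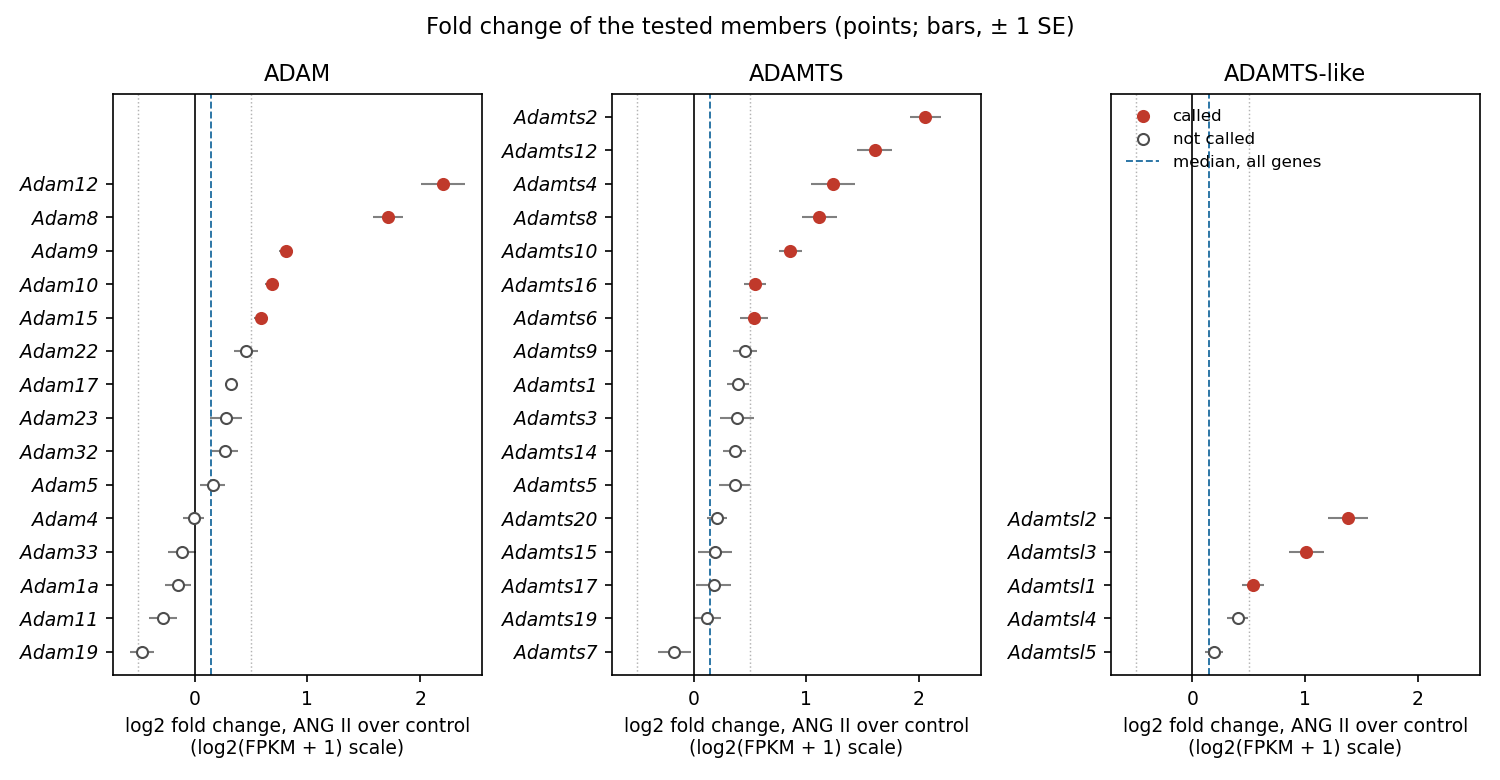
Log2 fold change (ANG II over control, log2(FPKM + 1) scale, horizontal axis) of the 37 tested members in 3 panels by subfamily, with bars of 1 SE, the called members filled and the median of all genes tested as a dashed line. The 15 called members lie between 0.53 and 2.20, and Adam19 has the lowest value at -0.47.

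Among the membrane ADAM proteases, Adam12 and Adam8 rose from low levels. Adam12 (meltrin alpha), known from fusing muscle precursors and from activated mesenchymal cells, was at 0.372, 0.491, 0.406 and 0.527 FPKM in control libraries 1 to 4 and at 6.62, 4.97, 8.39 and 3.62 FPKM in ANG II libraries 1 to 4. Every ANG II library was above every control library, and the ANG II libraries spread over more than the whole control range. The means were 0.449 ± 0.072 and 5.90 ± 2.06 FPKM (SD, n = 4 each), 13.1-fold apart, and the log2 fold change was 2.20 ± 0.20 (SE; adjusted p = 4.62e-05, limma). Adam8, a protease of myeloid cells, was at 0.435, 0.761, 0.904 and 0.632 FPKM in control and at 4.94, 3.88, 5.34 and 3.96 FPKM in ANG II. The groups were apart, with a log2 fold change of 1.72 ± 0.13 (SE; adjusted p = 2.11e-05, limma). Both Adam12 and Adam8 were highest in ANG II library 3.

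The widely expressed sheddases started from higher levels and changed less. Adam9 (meltrin gamma) was at 27.2, 27.0, 25.6 and 25.4 FPKM in control and at 48.2, 51.2, 45.7 and 42.9 FPKM in ANG II. Its log2 fold change was 0.81 ± 0.06 (SE; adjusted p = 1.95e-05, limma), with no overlap of the groups. Adam10, the main protease that cuts Notch at the cell surface, was at 27.8, 30.4, 28.8 and 27.9 FPKM in control and at 50.9, 46.6, 47.2 and 43.1 FPKM in ANG II. All ANG II libraries lay above the control libraries, and the log2 fold change was 0.69 ± 0.06 (SE; adjusted p = 4.27e-05, limma). With median-of-ratios scaling the value of Adam10 was 0.46 and it was no longer called. Adam15 (metargidin), which can bind integrins, was at 27.7, 26.0, 28.6 and 25.5 FPKM in control and at 44.5, 37.5, 40.4 and 42.0 FPKM in ANG II. The groups did not overlap, and its log2 fold change was 0.59 ± 0.06 (SE; adjusted p = 0.000144, limma). Under 3 other scalings Adam15 had log2 fold changes of 0.37 to 0.45 and was not called. Of the Adam15 exons, 20.6% lie under 4731419I09Rik on the other strand, and 15.4% of its 50-base words recur in other transcripts, so its level is less certain.

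Adam17, the enzyme that releases tumor necrosis factor, passed the p-value limit and not the fold limit. It was at 22.9, 22.6, 23.8 and 23.5 FPKM in control and at 29.0, 27.5, 29.4 and 31.3 FPKM in ANG II. The groups were apart, but the log2 fold change was 0.32 ± 0.05 (SE; adjusted p = 0.00153, limma), and it was 0.10 with median-of-ratios scaling. Adam10 had the larger log2 fold change of these related sheddases, and the difference between the 2 was not tested.

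Adam19 (meltrin beta), which acts in heart valve and septum development, was the single member that passed the p-value limit in the lower direction. It was at 35.9, 36.4, 35.2 and 31.3 FPKM in control and at 23.2, 21.6, 23.9 and 31.5 FPKM in ANG II. ANG II libraries 1 to 3 lay below all control libraries, whereas ANG II library 4 lay within the control range. The log2 fold change was -0.47 ± 0.11 (SE; adjusted p = 0.00773, limma), short of the fold limit. Adam19 was called as lower with median-of-ratios scaling (-0.69), quantile normalization (-0.67), without mitochondrially encoded and top 10 genes (-0.61), and when ANG II library 4 or control library 4 was left out. Of the Adam19 exons, 15% lie under Gm16033 and Gm16034 on the other strand.

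Of the ADAM genes without a catalytic motif, 6 were tested and 0 were called, beside 15.4% of all genes, and nothing is read from so small a count. Adam22, a receptor of LGI proteins best known from neurons, averaged 5.02 ± 0.44 FPKM with saline and 7.26 ± 1.03 FPKM with ANG II (SD, n = 4 each), with groups apart and a log2 fold change of 0.45 (adjusted p = 0.00895, limma). It was called with a pseudocount of 0.1, with voom, and without ANG II library 4. Adam11 and Adam23, its nearest relatives, had log2 fold changes of -0.28 and 0.28 with overlapping groups. Adam11 was called as lower with quantile normalization. The remaining tested ADAM genes, Adam33, Adam1a, Adam32, Adam5 and Adam4, were at 1.48 FPKM or less in every library, had log2 fold changes of -0.15 to 0.27, and overlapped between groups. The sign of Adam4 turned under some alternatives. Of the Adam1a exons, 87.7% lie under other genes of the same strand, so its value may include their fragments.

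A further 18 ADAM genes were not tested. Of these, 12 were at 0 in all 8 libraries, among them Adam7, Adam18, Adam28 and Adam29, for which a count of 0 allows up to 3 fragments per library. Adam21, Adam2, Adam3, Adam30, Adam6b and Adam1b had at most 8 fragments in a library. Many of these genes are known from testis and sperm.

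Among the secreted ADAMTS proteases, Adamts2 had the largest log2 fold change on the log2(FPKM + 1) scale, whereas Adamts8, Adamts12 and Adamts16, which have lower levels, were above it with a pseudocount of 0.1 and with voom. The procollagen N-propeptidases, Adamts2, Adamts3 and Adamts14, remove the amino-terminal propeptide of fibrillar procollagens. Adamts2 was at 9.16, 12.8, 7.85 and 9.99 FPKM in control and at 49.0, 49.7, 37.8 and 40.6 FPKM in ANG II. The lowest ANG II library was above the highest control library by a wide margin, and the means of 9.95 ± 2.09 and 44.3 ± 6.0 FPKM (SD, n = 4 each) were 4.45-fold apart. The log2 fold change was 2.06 ± 0.14 (SE; adjusted p = 9.82e-06, limma). Adamts14 stayed below 1 FPKM, with log2 fold change 0.36 and groups apart (adjusted p = 0.0186, limma). Adamts3 had a log2 fold change of 0.39 with overlapping groups (adjusted p = 0.0734, limma). Both were called with voom on the recovered fragments (1.0 for Adamts14 and 0.61 for Adamts3), and Adamts14 also with a pseudocount of 0.1.

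Of the 7 proteoglycan-cleaving ADAMTS genes, 2 were called, Adamts4 and Adamts8, a share not far from the 15.4% of all genes for so few genes. Adamts4, an aggrecanase that also cuts versican, was at 0.960, 1.15, 1.07 and 0.594 FPKM in control and at 4.80, 2.16, 4.37 and 3.35 FPKM in ANG II. The groups were apart, with ANG II library 2 the closest to control, and the log2 fold change was 1.24 ± 0.19 (SE; adjusted p = 0.000958, limma). Adamts8 was at 0.269, 0.399, 0.201 and 0.689 FPKM in control and at 2.51, 1.83, 2.35 and 1.39 FPKM in ANG II. The groups did not overlap, with a log2 fold change of 1.11 ± 0.16 (SE; adjusted p = 0.000551, limma). Of the Adamts8 exons, 10.6% lie under Gm29724 on the other strand. The most abundant ADAMTS gene in control, Adamts1, averaged 29.7 ± 3.56 FPKM with saline and 39.3 ± 4.46 FPKM with ANG II (SD, n = 4 each), with groups apart and a log2 fold change of 0.39 (adjusted p = 0.0127, limma). Adamts9 had a log2 fold change of 0.46 (adjusted p = 0.00924, limma), also with groups apart, and was called with voom and when ANG II library 3 or 4 or control library 2 was left out. Of the Adamts9 exons, 12.0% lie under genes of the other strand. Adamts5, Adamts15 and Adamts20 had log2 fold changes of 0.36, 0.19 and 0.20 and did not pass the p-value limit. The groups of Adamts20 were apart and it was called with voom (1.25; adjusted p = 0.0252), and Adamts15 turned negative with quantile normalization.

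Adamts12 and Adamts7 both cut cartilage oligomeric matrix protein, and their values differed. Adamts12 was at 1.13, 1.75, 0.856 and 0.649 FPKM in control and at 5.35, 5.66, 5.63 and 4.47 FPKM in ANG II. The groups were apart, with a log2 fold change of 1.60 ± 0.16 (SE; adjusted p = 8.20e-05, limma). Adamts7 averaged 5.86 ± 1.44 FPKM with saline and 5.01 ± 0.43 FPKM with ANG II (SD, n = 4 each), with overlapping groups and a log2 fold change of -0.17 (adjusted p = 0.41, limma). The mean of Adamts7 was above that of Adamts12 with saline, whereas with ANG II the means differed by less than their SDs.

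The list of fibrillin-associated ADAMTS genes used here held 2 genes, Adamts10 and Adamts6, and need not be complete. Both were called, beside 15.4% of all genes, and nothing is read from so small a count. The call of Adamts6 was lost in several settings. Adamts10, known from Weill-Marchesani syndrome, was at 14.9, 13.5, 10.6 and 11.5 FPKM in control and at 23.6, 23.6, 21.9 and 25.0 FPKM in ANG II. The groups were apart and the log2 fold change was 0.86 ± 0.10 (SE; adjusted p = 0.000174, limma). Adamts6, its closest relative, was at 1.18, 1.605, 1.3 and 1.298 FPKM in control and at 2.58, 1.79, 2.79 and 2.48 FPKM in ANG II. ANG II library 2 lay just above the highest control library, and the log2 fold change was 0.53 ± 0.12 (SE; adjusted p = 0.0083, limma). Adamts6 was not called under 3 other scalings (0.25 to 0.44) or when ANG II library 3 (0.48) or control library 1 (0.50) was left out.

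Adamts16 was near 0 in control: its 4 control libraries held 0, 2, 0 and 1 fragments, and the ANG II libraries held 33, 40, 21 and 22. In FPKM it was at 0, 0.0355, 0 and 0.0169 in control and at 0.565, 0.65, 0.36 and 0.357 in ANG II. It passed the filter on low values through the ANG II libraries alone, so the direction of its call carries no weight of its own. Per library depth, the ratio of summed fragments was 37.9, with an exact 95% interval of 12.6 to 186.3 that covers counting error only. The fitted log2 fold change was 0.54 ± 0.09 (SE; adjusted p = 0.00175, limma), and it was 0.49 without ANG II library 2 and 0.46 with quantile normalization, in both cases not called. Adamts17 and Adamts19 were below 1 FPKM in every library, with log2 fold changes of 0.18 and 0.12 and overlapping groups. Adamts13, the protease of von Willebrand factor, which is made mainly in liver, had at most 2 fragments in a library, and Adamts18 was at 0 throughout, which allows up to 3 fragments per library.

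**Figure D2:**
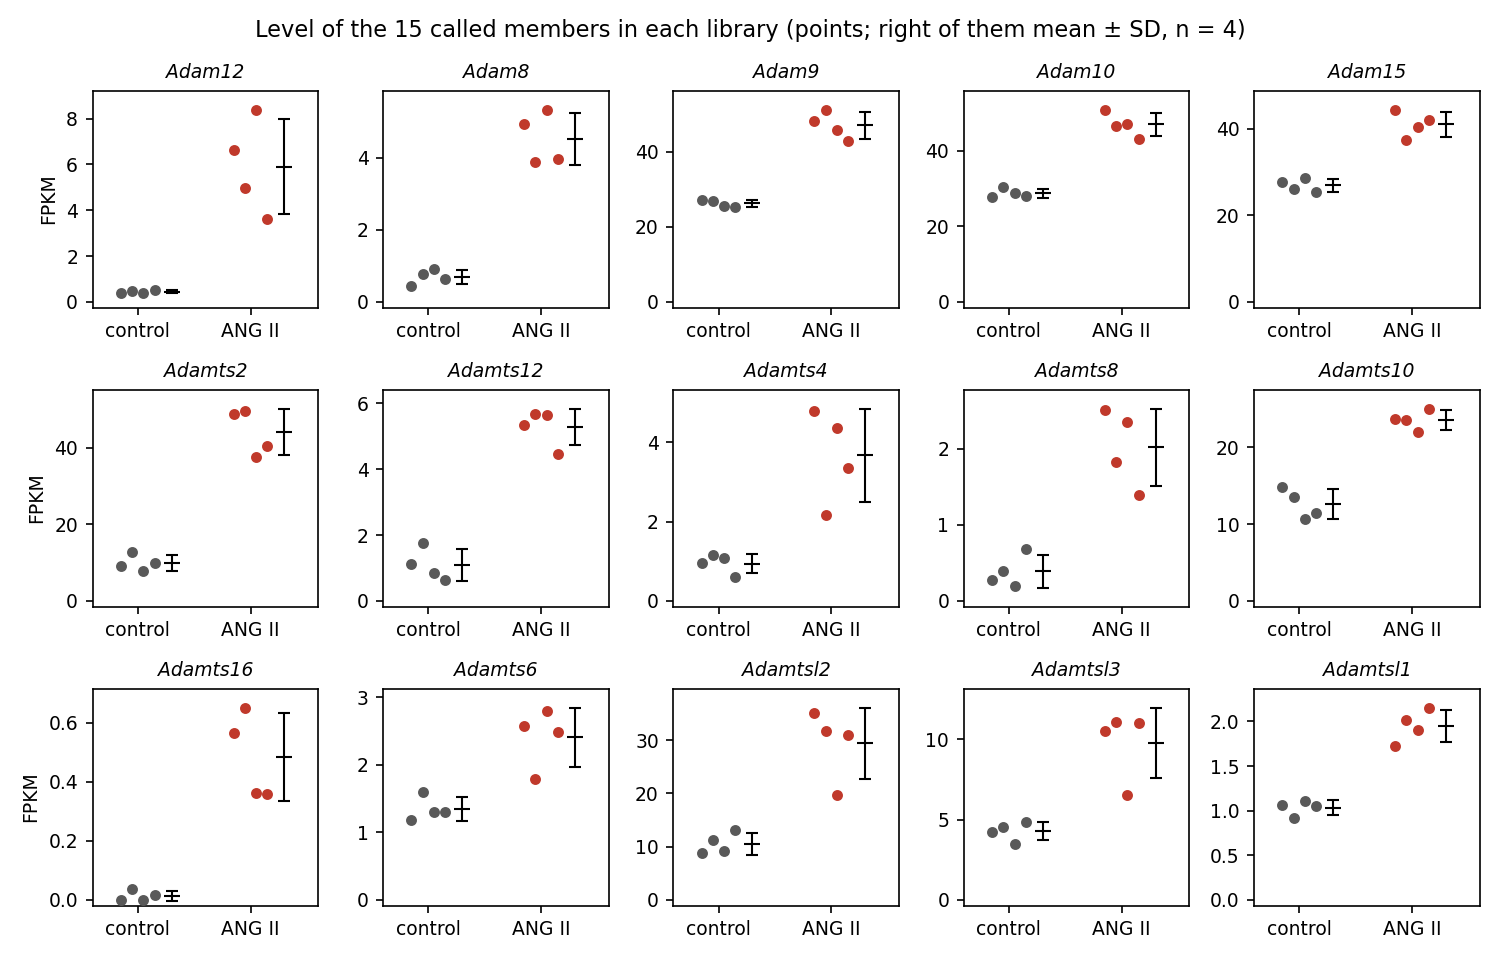
FPKM (vertical axis, from about 0, scaled per panel) of the 15 called members in the 4 control and 4 ANG II libraries, 1 point per library in the order 1 to 4, with the mean and SD (n = 4) to the right. In every panel the lowest ANG II point lies above the highest control point, and Adamts6 comes closest to overlap, through ANG II library 2 at 1.79 FPKM.

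Of the ADAMTS-like genes, 3 of 5 rose, beside 14.0% of all genes. Adamtsl2, a microfibril-associated protein known from geleophysic dysplasia, was at 8.74, 11.2, 9.11 and 13.2 FPKM in control and at 35.2, 31.7, 19.7 and 30.9 FPKM in ANG II. The groups were apart although ANG II library 3 lay well below the other ANG II libraries, and the log2 fold change was 1.38 ± 0.18 (SE; adjusted p = 0.000338, limma). Adamtsl3 (punctin-2) was at 4.25, 4.57, 3.49 and 4.82 FPKM in control and at 10.5, 11.1, 6.54 and 11 FPKM in ANG II. Its log2 fold change was 1.01 ± 0.16 (SE; adjusted p = 0.00102, limma), and ANG II library 3 was again the lowest of its group. Adamtsl1 (punctin) was at 1.06, 0.922, 1.11 and 1.05 FPKM in control and at 1.73, 2.02, 1.91 and 2.15 FPKM in ANG II. The groups did not overlap, with a log2 fold change of 0.53 ± 0.10 (SE; adjusted p = 0.00228, limma), and under 3 other scalings its value was 0.27 to 0.45 and it was not called. Adamtsl4, which binds fibrillin-1, had a log2 fold change of 0.40 with groups apart (adjusted p = 0.00922, limma). Adamtsl5, the most abundant of the 5, averaged 42.8 ± 2.25 FPKM with saline and 49.1 ± 4.87 FPKM with ANG II (SD, n = 4 each), with overlapping groups and a log2 fold change of 0.19 (adjusted p = 0.0827, limma), which turned negative with median-of-ratios scaling.

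The makeup of each subfamily also differed between the groups. Summed over its members, the ADAM subfamily reached 156.6 ± 4.85 FPKM with saline and 216.5 ± 5.23 FPKM with ANG II (SD, n = 4 each). The ADAMTS sum was 80.5 ± 4.73 FPKM with saline and 151.6 ± 10.98 FPKM with ANG II, and the ADAMTS-like sum was 75.2 ± 6.43 and 112.3 ± 13.86 FPKM. Within the ADAM sum, the share of Adam19 was 20.96 to 22.97% in control libraries and 10.2 to 14.7% in ANG II libraries, and Adam9, Adam10 and Adam15 together with Adam17 made up most of the rest in both groups. Within the ADAMTS sum, Adamts1 was the most abundant gene in each control library with 29.4 to 41.4%, and Adamts2, at 10.4 to 14.8% in control, held 26.2 to 30.7% in ANG II, above Adamts1 in all 4 ANG II libraries. Among ADAMTS-like genes, the share of Adamtsl2 was 11.9 to 16.4% in control and 21.5 to 29.8% in ANG II, and that of Adamtsl5 was 54.9 to 58.9% and 41.8 to 45.9%. The groups did not overlap for any of these 5 shares, which do not change when each library is scaled by a single factor. Shares after quantile normalization, which is no such factor, were not computed.

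**Figure D3:**
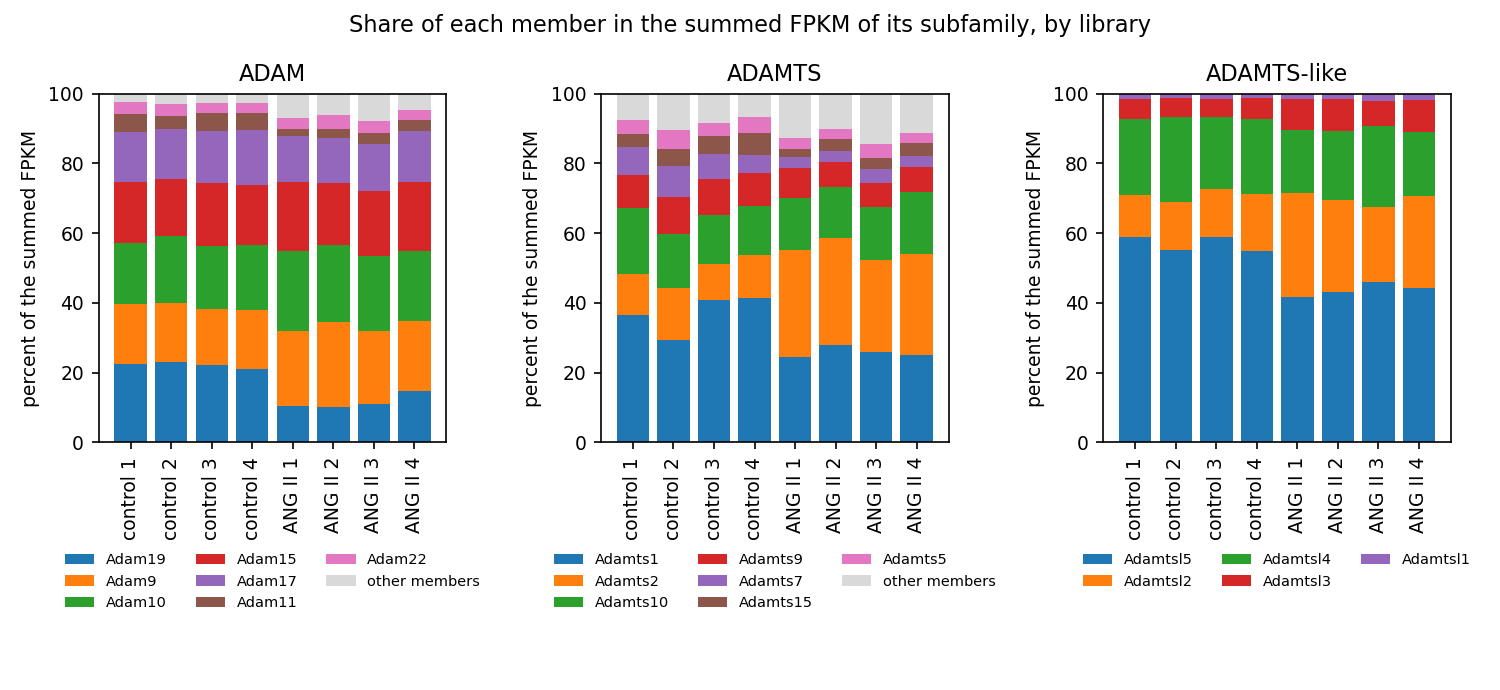
Share of each member in the summed FPKM of its subfamily (percent, vertical axis) in each of the 8 libraries, with the most abundant members coloured and the others in gray. The Adam19 block averages 22.2% of the ADAM sum in control and 11.6% in ANG II, and the Adamts2 block averages 12.3% and 29.1% of the ADAMTS sum.

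The called members did not share 1 order among the ANG II libraries. ANG II library 3 was highest for Adam8, Adam12 and Adamts6 and lowest for Adamts2, Adamts10, Adamtsl2 and Adamtsl3. ANG II library 4 was lowest for 6 of the 15 called members and highest for 2, whereas library 1 was highest for 5 and lowest for 1.

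Inhibitors of these proteases were counted from a list of 6 genes, of which 4 were called, all as higher, beside 14.0% of all genes called as higher. Since 90.8% of all calls were higher, the shared direction of so few genes is not particular to them. Timp1 had the largest change, from 2.19 ± 0.31 to 53.3 ± 24.1 FPKM (SD, n = 4 each; log2 fold change 3.99; adjusted p = 7.96e-06, limma). Timp2 had a log2 fold change of 0.91 and Timp3, which inhibits Adam17 and the aggrecanases, of 0.64. Reck was the fourth (0.52), and A2m and Timp4 did not pass, Timp4 with a log2 fold change of -0.55 (adjusted p = 0.193, limma). With median-of-ratios scaling, with quantile normalization, and without mitochondrially encoded and top 10 genes, 2 of the inhibitors were called. All genes gave 2474, 2399 and 2512 calls in these settings, against 2981 in the main comparison. Without ANG II library 1, Reck was no longer called (0.48) and Timp4 was called as lower (-0.82; adjusted p = 0.0469, limma). Reck was also not called without ANG II library 2 (0.49) or control library 3 (0.43).

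Genes that mature or escort Adam10 and Adam17 gave 6 calls of 13 tested, all higher, beside 14.0% of all genes called as higher. The largest were Tspan17 (log2 fold change 1.10), Frmd8 (0.81), which stabilises the complex of Adam17 with its escort proteins, and Tspan5 (0.78). Tspan17 and Tspan5 belong, with Tspan14, to the tetraspanins that escort Adam10, and 3 of the 6 such tetraspanins were called. Of the escort proteins of Adam17, Rhbdf1 was called (0.53) and Rhbdf2 was not (0.13). Furin, which removes the prodomain of many ADAM proteins, had a log2 fold change of 0.32 (adjusted p = 0.000895, limma), short of the fold limit. With median-of-ratios scaling 3 of the 13 were called, all higher, beside 1670 of all 19364 genes called as higher. With quantile normalization 2 of the 13 were called, both higher, beside 1413 of all 19364 genes called as higher. Nothing is read from so small a count.

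Substrates of ADAMTS proteases rose in 14 of 17 tested genes, beside 14.0% of all genes, with a median log2 fold change of 1.85 beside 0.15 over all genes. The largest were Fn1 (fibronectin, 3.63), Col1a1 (3.25) and Col1a2 (3.13), the latter being chains of type I collagen, whose procollagen Adamts2 processes. The genes not called were Bcan, Col2a1 and Ltbp1, and Ncan was not tested. Of 28 tested genes for cell surface substrates of Adam10 and Adam17, 15 were called, all higher, with a median log2 fold change of 0.63, beside 14.0% called as higher and a median of 0.15 over all genes, and 90.8% of all calls were higher. Ereg is among the 15 and, like Adamts16, passed the filter on low values only through the ANG II libraries, so its direction was fixed by the filter. The largest were Tnfrsf1b (1.36), a receptor of tumor necrosis factor, Sdc1 (1.35), a heparan sulfate proteoglycan, and Cxcl16 (1.33), a membrane-bound chemokine. Tnf and Notch1 were not called, and Areg and Epgn were not tested.

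**Figure D4:**
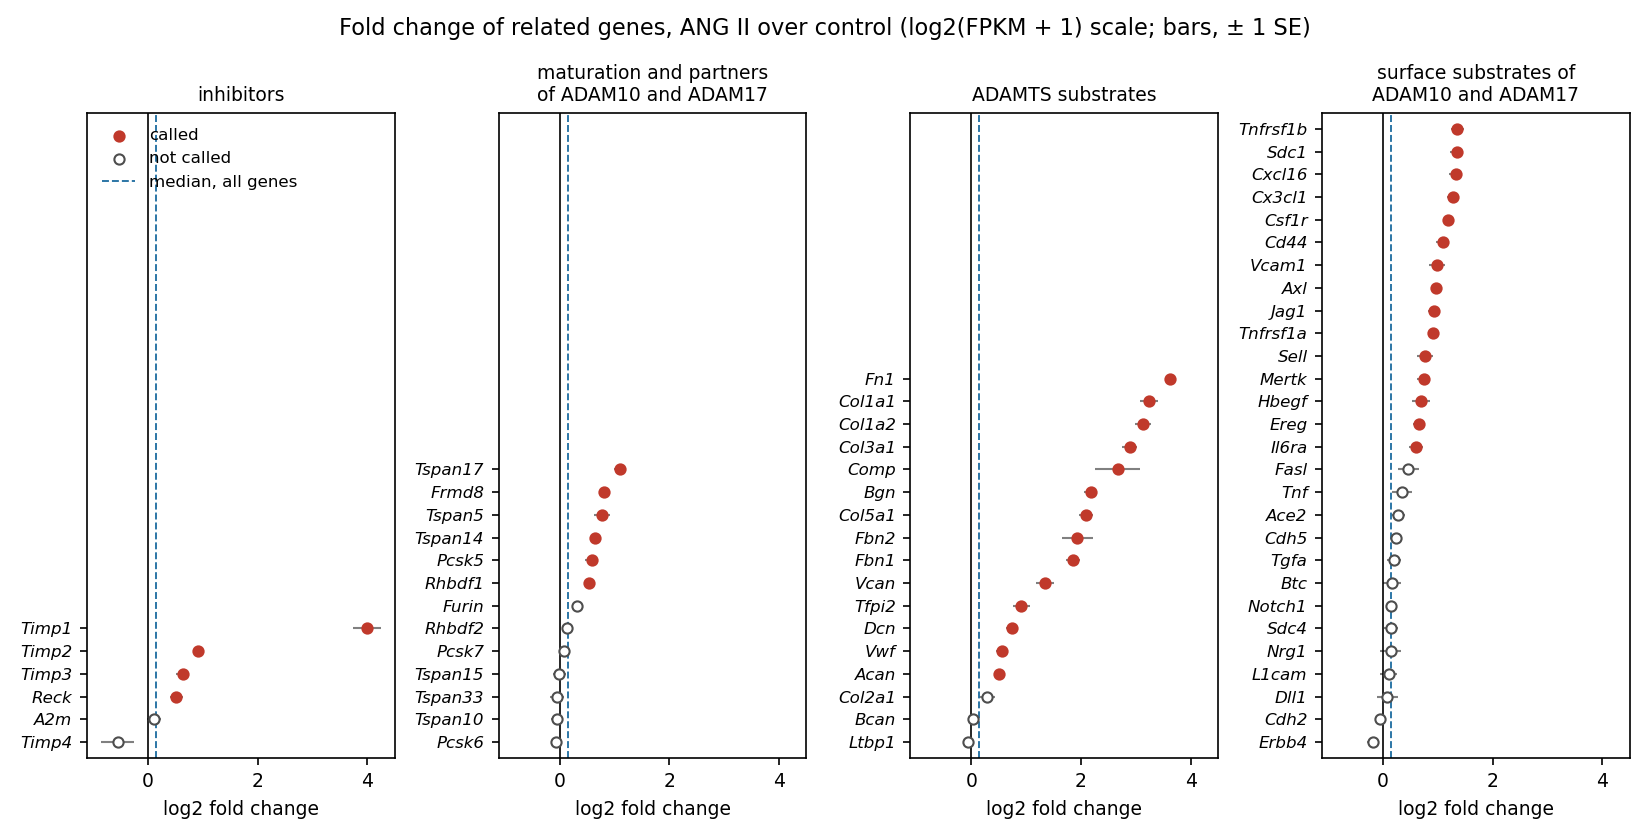
Log2 fold change (ANG II over control, log2(FPKM + 1) scale, horizontal axis) with bars of 1 SE for the tested genes of 4 lists: 6 inhibitors, 13 maturation and partner genes, 17 ADAMTS substrates and 28 surface substrates. Called genes are filled and the dashed line is the median of all genes tested; Timp1 at 3.99 and Fn1 at 3.63 lie farthest to the right.

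Markers of some other cell types also differed between the groups, whereas those of others did not. The counts below stand beside 14.0% of all genes called as higher and 1.41% as lower. Fibroblast markers summed to 176.2 to 234.3 FPKM in control and 527.6 to 594.5 FPKM in ANG II, with 9 of 10 called as higher. Activated fibroblast markers summed to 40.4 to 69.0 FPKM and 690.6 to 1090 FPKM, with 8 of 8 called as higher. Macrophage markers summed to 318.6 to 405.6 FPKM and 751.5 to 1062 FPKM, with 12 of 12 called as higher (Csf1r is also on the surface substrate list). Neutrophil markers summed to 2.60 to 6.85 FPKM and 8.91 to 22.5 FPKM, with 4 of 6 tested called as higher. Of T cell markers 1 of 6, of endothelial markers 1 of 7 and of B cell and mesothelial markers 0 of 4 each were called as higher. For so few genes these shares are not far from that of all genes. Of smooth muscle and pericyte markers 3 of 10 were called as higher and 1 as lower, and of the 3 atrial markers 1 was called as higher. Cardiomyocyte markers summed to 52670 to 53570 FPKM in control and 39850 to 42520 FPKM in ANG II, with 2 of 10 called as lower. None of these markers was at 0 in all libraries. In whole tissue, fewer cells of a type and less RNA per cell cannot be told apart, and the part of these cell types in the values of the members was not tested.

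Of the 57 members, 31 had a promoter window in RefSeq (GRCm38.p6), and these include 7 of the 15 called members. In each window, the 250 bases before the gene start were searched on both strands. A member was counted once if any of its windows held a match, whereas the share of all windows counts single windows. TGANTCA, the AP-1 motif, was in 0 of the 7 called members, in 4 of the 31 and in 6.75% of all 32851 windows. CATTCC, the TEAD motif, was in 0 of the 7, in 2 of the 31 and in 12.6% of all windows. TATAAA was in 1 of the 7, that of Adamtsl2, in 5 of the 31 and in 12.4% of all windows. GGGCGG, the core of the Sp1 motif, was in 6 of the 7, in 15 of the 31 and in 32.7% of all windows. The 250 bases before the start are shown, with matches in capitals, for the called member of each subfamily with a window and the largest log2 fold change, at chr7:139992563-139992812 (minus strand), chr11:50601835-50602084 (plus strand) and chr2:27079129-27079378 (plus strand).
Adam8: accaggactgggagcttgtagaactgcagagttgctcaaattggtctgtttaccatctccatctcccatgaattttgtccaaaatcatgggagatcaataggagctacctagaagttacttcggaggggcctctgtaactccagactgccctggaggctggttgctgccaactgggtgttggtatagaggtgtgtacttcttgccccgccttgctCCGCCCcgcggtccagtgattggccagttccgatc
Adamts2: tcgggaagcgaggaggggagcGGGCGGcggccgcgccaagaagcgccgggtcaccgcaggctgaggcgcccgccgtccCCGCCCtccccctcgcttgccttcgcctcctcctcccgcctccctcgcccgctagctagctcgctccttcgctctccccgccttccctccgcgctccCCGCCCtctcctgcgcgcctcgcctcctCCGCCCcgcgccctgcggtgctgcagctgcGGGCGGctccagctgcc
Adamtsl2: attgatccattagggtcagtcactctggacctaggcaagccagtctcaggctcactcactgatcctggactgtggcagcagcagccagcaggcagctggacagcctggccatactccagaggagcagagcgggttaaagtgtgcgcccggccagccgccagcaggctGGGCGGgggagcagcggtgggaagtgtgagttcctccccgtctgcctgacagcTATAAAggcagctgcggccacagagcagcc
Adamts2 has 5 matches to GGGCGG, Adam8 has 1, and Adamtsl2 has 1 beside its TATAAA match.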

How the data were processed

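The authors deposited 1 table of FPKM values with 1 column per library, made from oligo(dT)-enriched RNA, and the submitters' processing notes name Bowtie2, HISAT and RSEM without roles or versions. The genome build, annotation and use of strand were not given in the sources used here. The paper describes more samples, which were not analysed here. Values were used as deposited, and fragments were recovered from the steps of the FPKM values (99.3% of values under 60 fragments were whole within 0.05 for genes with 1 exon, 97.8% for others). Groups came from the treatment labels.

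The 19364 genes averaging 0.1 FPKM or more were fitted with limma 3.58.1 in R 4.3.3 (lmFit, trended eBayes) on log2(FPKM + 1), two-sided, with Benjamini-Hochberg adjustment over all of them. A gene was called at adjusted p under 0.05 and absolute log2 fold change above 0.5, the thresholds the study names; the pseudocount, the filter and the log base were choices of this work. The fit was tested on simulated data, in which changed genes were recovered less often when genes below 1 FPKM were among them. Every called member is named with its value in each library, other tested members with group values or a range, and up to 3 called genes of each related list by largest log2 fold change; others named there were chosen after their values were seen. The members and lists were chosen with earlier results of these data known. Coordinates, coding runs, shared 50-base words and overlapping exons came from GENCODE M21 (GRCm38; 57 of 57 members found), and promoters from RefSeq. Python 3.11.15, pandas 2.3.3 and matplotlib 3.10.9 were used. Alternatives changed 1 choice at a time: pseudocount, filter, scaling, variance trend, replicate block, voom on fragments, thresholds and each library left out.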

Additional observations from a re-analysis of the deposited data

Results flagged for a closer look

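In 4 of 74 groups of 4 libraries, 1 library stood apart from the others of its group by Dixon's test; chance alone gives about 1 in 20 groups. Adamtsl4 was highest in ANG II library 2, at 24.05 FPKM beside 21.35 to 21.68 in the others. Adamts20 was highest in ANG II library 2, at 0.4529 FPKM (28 fragments) beside 0.2212 to 0.2583. Adam33 was lowest in ANG II library 4, at 0.6906 FPKM (19 fragments) beside 1.191 to 1.275. Adamtsl3 was lowest in ANG II library 3, at 6.541 FPKM (224 fragments) beside 10.51 to 11.07, and this library still lay above all control libraries.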

How the results depend on the processing

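Of the 15 called members, 8 had a log2 fold change above 1, and 11 were also called with median-of-ratios scaling and 11 with quantile normalization. With an adjusted p under 0.05 alone, 6447 genes and 8 ADAM genes were called. With an absolute log2 fold change above 1, 795 genes, 2 ADAM genes, 4 ADAMTS genes, 1 inhibitor, 1 maturation and partner gene and 6 surface substrate genes were called. With voom on the recovered fragments, 11 ADAMTS genes were called, beside 3987 of all genes. Median-of-ratios scaling left 2 inhibitors and 3 maturation and partner genes, quantile normalization 2 and 2, and leaving out mitochondrially encoded and top 10 genes 2 inhibitors. The calls over all genes were 2474, 2399 and 2512 in these settings. With libraries left out in turn, 14 to 18 members were called, beside 2722 to 3078 of all genes. No called member changed sign under these alternatives. Without replicate block 15 members and 2981 genes were called, and with the replicate number as a replicate block 15 and 2968. The deviations of same-numbered libraries correlated at -0.016, 0.062, -0.032 and -0.0093. No pairing by number was seen in these values, which cannot show that such libraries share nothing else, and the labels do not say. The block changed no call of a member. Members under about 1 FPKM rest on few fragments, which limits what can be detected for them.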
